A study of Nothobranchius furzeri with 10 samples.

Results

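The 200 genes whose expression varied least between liver libraries of the turquoise killifish, Nothobranchius furzeri, are described here, out of 26739 genes in the count table. Liver RNA was sequenced from male fish of strain MZM-0410p aged 27 weeks, with 5 libraries from the group given rotenone at 15 pM and 5 from the group given DMSO alone. How the compounds were given, and for how long, is not given in the sources used here, and the labels do not say in words that each library came from a separate fish. To choose the genes, each library's counts were divided by its DESeq2 size factor, the median over genes of the ratio of a gene's count to its geometric mean over libraries. The 100 genes of highest mean normalized count were set aside, genes with a mean under 200 were dropped, and the remaining 10090 were ranked by the SD over all 10 libraries of log2(normalized count + 1). The 200 of lowest SD were taken. The genes were thus chosen by their own SD over all 10 libraries, and their low spread is a description and not a finding.

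Rotenone is an inhibitor of mitochondrial complex I, the entry point of the respiratory chain for electrons from NADH. Genes of steady expression are used as references in expression studies, since the level of any other gene has to be stated relative to something assumed not to move. Scaling by size factors rests on the same assumption, applied to the median gene. Liver is a tissue in which a small number of transcripts, mostly for secreted and metabolic proteins, makes up a large part of the RNA, so a share of the total and a level relative to the median gene can differ.

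The libraries held 29162530 to 39514232 counts in the rotenone group and 32775234 to 41902929 in the DMSO group. The labels name no batch. Gene IDs come without names in the files, and 0 of the 26739 were found in RefSeq's gene table for assembly NfurGRZ-RIMD1, so the functions, positions and sequences of the genes are not described and the labelled tissue was not checked against marker genes. Each of the 200 genes passed the count filter of the group test.

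The rule bounded the abundance of the steady genes, by a mean of at least 200 and by leaving out the 100 most abundant genes. Their mean normalized count ran from 206 to 17222 with a median of 793, against a median of 689 for the 9890 other ranked genes. Per length, their level had a median of 6.91 RPKM recomputed from the counts, against 7.11 RPKM for the other ranked genes. The SD of log2 normalized count ran from 0.05 to 0.1255, with a median of 0.111, and the other ranked genes had a median SD of 0.334. The gene ranked 201, just outside, had an SD of 0.1256. The median ratio of highest to lowest library was 1.27 for a steady gene (1.11 to 1.39), and 20 of the 200 stayed under 1.2-fold. Of the other ranked genes, 0 stayed under 1.2-fold and 939 under 1.5-fold, and their median ratio was 2.06. The choice by SD fixes the side of these differences in SD and in ratio. It does not fix those in count and RPKM, but the scatter of read sampling, larger at low counts, enters the SD and favours higher counts.

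Part of the remaining spread was counting error, the scatter expected when molecules are sampled as reads. For a steady gene the SD expected from counting alone had a median of 0.0518, and counting accounted for a median of 22.9% of the gene's variance (interquartile range 12.2 to 40.7%), against 2.55% for the other ranked genes. The counting SD itself was similar in the others, at a median of 0.0555, so this contrast restates the choice by SD. Counting made up over 50% of the variance in 37 of the 200 genes and in 7 of the 9890 others. In 3 steady genes, ranked 2, 3 and 23, the observed variance was no larger than the counting variance, as can happen at the low end of a ranking by SD, and it does not show that they lack variation between livers. In 32 of the 200, counting made up less than 10%. The most abundant steady gene, ranked 105, had normalized counts of 15858, 16998, 16307, 17406 and 17514 in the rotenone libraries and 16804, 18472, 15092, 19676 and 18096 in the DMSO libraries. Its counting share was 0.998%, and the DMSO libraries enclosed all rotenone libraries. The least abundant, ranked 150, had 219.8, 198, 226, 199.99 and 225 normalized counts in the rotenone libraries and 214, 185, 217, 178 and 202 in the DMSO libraries. Its groups overlapped too, and counting made up 72.8% of its variance. Counting error here covers the sampling of reads only.

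**Figure D1:**
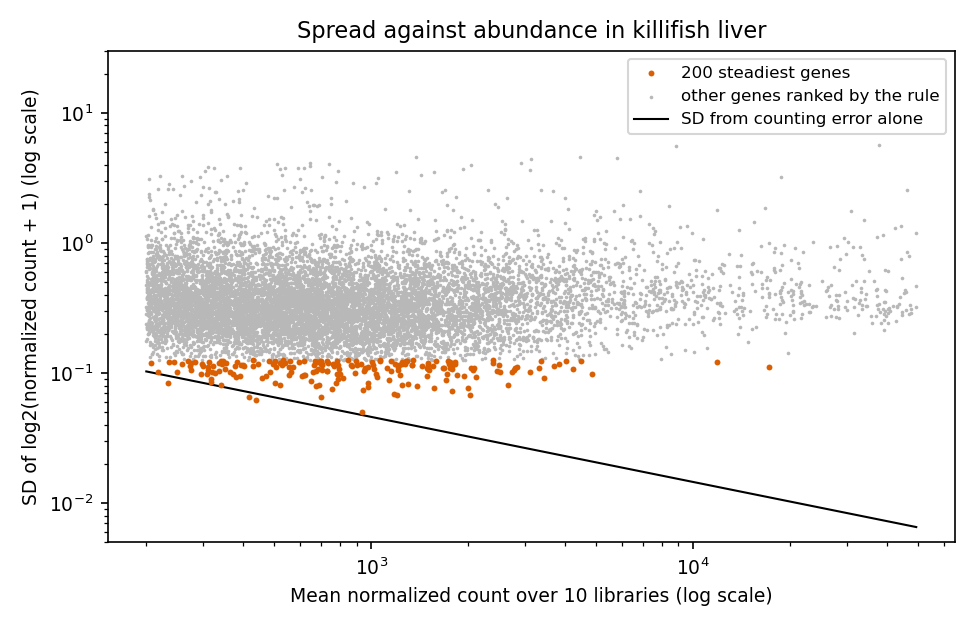
SD over 10 libraries of log2(normalized count + 1) against mean normalized count, both on log axes, for the 200 steadiest genes (orange) and the 9890 other ranked genes (grey); the black line is the SD that counting error alone would give. The steady genes lie below 0.1255 at every abundance, and those of low abundance lie nearest to the counting line.

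Steady genes were found in every quartile of abundance, and least often in the lowest. Counting alone gives an SD of up to 0.103 for the least abundant ranked genes, close to the limit of 0.1255. Its part in the shares below was not tested. With the counting variance subtracted, the rule chose 171 of the 200 again. In order of quartiles of mean normalized count among the ranked genes, lowest first, 36, 45, 66 and 53 were steady genes, or 1.43, 1.78, 2.62 and 2.10% of each quartile. Over all 10090 ranked genes, Spearman's correlation of SD with abundance was −0.0040. A rank correlation near 0 does not mean that the SD was alike at all abundances. In the same order of quartiles, the median SD of all ranked genes was 0.347, 0.314, 0.306 and 0.354, highest at both ends.

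Gene length, which the rule did not use, differed from that of the other ranked genes. Lengths implied by the deposited RPKM had a median of 4338 bp for the steady genes (interquartile range 2280 to 5624) and 3140 bp for the others (1680 to 5271). They ran from 324 to 12303 bp in the steady genes and from 18 to 88535 bp in the others. None was checked against an annotation, and what kind of length they are is not known. In the shorter 2 quartiles of length, 34 and 32 genes were steady (1.35 and 1.27%), and in the longer 2, 73 and 61 (2.89 and 2.42%). Longer genes also had more counts (Spearman's correlation across ranked genes 0.14), so the lengths were set side by side within quartiles of abundance. In the lowest quartile the median was 2449 bp for steady genes and 2515 bp for the others. In the next 3 quartiles it was 4164 and 3000 bp, 4527 and 3637 bp, and 4836 and 3494 bp, with the steady genes longer in each. Across all ranked genes the relation was weak, with a Spearman's correlation of SD with length of −0.084, or −0.077 once the counting variance was subtracted. Genes are not independent replicates, and no test was made of this difference.

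Within the groups the steady genes varied to a like extent. The SD over the rotenone libraries had a median of 0.10 and that over the DMSO libraries a median of 0.102. The 9890 other ranked genes had medians of 0.271 in the rotenone and 0.302 in the DMSO libraries. A low SD over all 10 libraries holds the SD within each group low, so these medians follow in part from the choice. The SD was higher in rotenone than in DMSO for 87 of the 200 genes (43.5%) and for 42.9% of the other ranked genes.

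The libraries did not contribute equally to what spread was left. The median deviation of the steady genes from their own means was −0.010, 0.046, −0.0072, −0.024 and 0.020 in rotenone replicates 1 to 5 and 0.018, −0.039, −0.029, 0.016 and 0.010 in DMSO replicates 1 to 5, on the log2 scale. All 10 medians therefore lay within 0.05 of 0, which follows in part from choosing the genes on the size-factor scale. With total counts they ran from −0.37 in rotenone replicate 4 to 0.23 in DMSO replicate 3. Rotenone replicate 2 was the highest of the 10 libraries for 41 of the 200 genes and DMSO replicate 4 for 31, while rotenone replicate 4 was the highest for 7. DMSO replicate 2 was the lowest library for 42 genes and rotenone replicate 4 for 27, while DMSO replicate 1 was the lowest for 7. With TMM factors in place of size factors these counts were 44, 33 and 7 for the highest library and 41, 27 and 6 for the lowest. With total counts they were others: DMSO replicates 3 and 4 were the highest for 74 and 66 genes and rotenone replicate 2 for 10, and rotenone replicate 4 was the lowest for 132 and DMSO replicate 2 for 28. DMSO replicate 4, the library that most often held the highest level over all ranked genes (21.1% of them) and also the lowest (14.8%), was the lowest for 24 of the steady genes. With size factors, rotenone replicate 2 was the highest for 15.25% of all ranked genes and rotenone replicate 4 for 9.23%. DMSO replicate 2 was the lowest for 8.82% of them, rotenone replicate 4 for 11.99% and DMSO replicate 1 for 6.15%. Beside these shares, 27 of 200 for rotenone replicate 4 was close, and 42 of 200 for DMSO replicate 2 was well above.

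**Figure D2:**
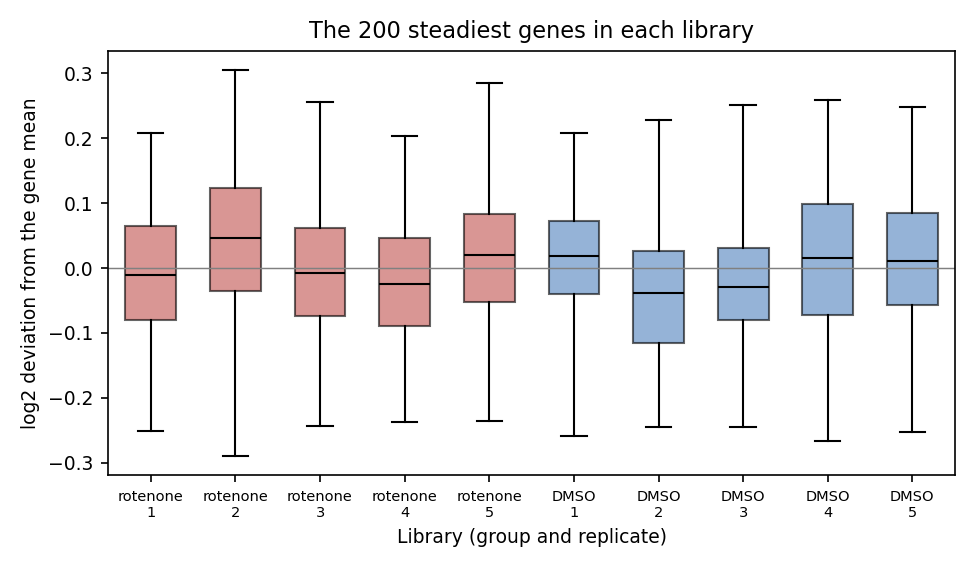
Deviation of log2(normalized count + 1) from the gene's mean over 10 libraries, for the 200 steadiest genes in each rotenone (red) and DMSO (blue) library. Boxes give the median and quartiles and whiskers the full range. Medians lie between −0.039 in DMSO replicate 2 and 0.046 in rotenone replicate 2, and the choice of genes on this scale limits them.

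The leading patterns of variation held less of the variance in the steady genes than in the ranked genes as a whole. The first principal component of the 200 genes held 17.1% of their variance and the second 16.0%, against 28.2 and 21.9% over all 10090 ranked genes. The first component placed rotenone replicates 1 to 5 at 0.36, −0.027, −0.13, 0.27 and 0.52. DMSO replicates 1 to 5 lay at −0.099, 0.061, −0.0028, −0.63 and −0.31, so the groups overlapped on it. Between pairs of steady genes the median Pearson correlation over the 10 libraries was 0.052, and 3.04% of pairs exceeded 0.7 in size. Among all ranked genes the median was 0.0056 and the share of such pairs 8.14%. Counting error made up more of the variance in the steady genes, and its part in these values was not tested. Genes were not scaled to equal variance for the components. Genes of large SD, which the choice removed, therefore weigh most over all ranked genes, and nothing is read from the contrast.

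Between rotenone and DMSO, edgeR called 0 of the 200 genes at an adjusted p under 0.05, where it called 75 of the 16922 genes tested (0.443%). That background rested on single libraries: edgeR called 355 genes higher and 572 lower without DMSO replicate 2, 3 in all without DMSO replicate 1, and 0 without DMSO replicate 5 or rotenone replicate 4. At an unadjusted p under 0.05 it found 0 of the 200, against 3777 of all genes tested (22.3%). DESeq2 called 0 as well, against 6.86% of 22405 genes, and put 1 gene at an unadjusted p under 0.05, against 19.1%. Those 22405 are all genes with a count, without the filter of edgeR, and any gene lacking an adjusted p counts as not called. limma on log2(RPKM + 1), recomputed with own totals, called 0 of the 200, against 0% of all genes, and put 4 of the 200 at an unadjusted p under 0.05, against 20.4%. A small SD over all 10 libraries bounds the size of any difference between the groups, so these counts follow in part from the choice and nothing is read from them. edgeR also draws each gene's dispersion towards that of other genes, and the standard errors of the log2 fold changes of the steady genes ran from 0.094 to 0.131.

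The group differences of the steady genes were small, as the limit on their SD requires, and lay on both sides of 0. The log2 fold change, rotenone over DMSO, ran from −0.17 to 0.22 with a median of 0.01. It was positive for 112 genes and negative for 88, and 36 exceeded 0.1 in size. For the median steady gene 8.14% of the variance in log2 level lay between the groups, against 18.8% for the other ranked genes. In 7 of the 200 (3.5%) that share was above 50%, against 14.4% of all ranked genes. A choice for low SD over both groups favours genes with a small share, so these contrasts follow in part from it. The rotenone and DMSO libraries did not overlap for 1 steady gene, where 4.84% of all tested genes had no overlap, and again the choice limits such genes. With TMM factors there were 2 such steady genes, and the share over all genes was not computed on that scale.

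4 genes are given by ID. Nfu_g_1_015121 (4921 bp), the steadiest of all, had normalized counts of 908, 942, 922, 983 and 952 in the rotenone libraries and 919, 995, 912, 919 and 896 in the DMSO libraries. The groups overlapped over nearly their whole range, with DMSO replicate 2 and rotenone replicate 4 the highest. Means were 942 ± 28.9 in rotenone and 928 ± 38.4 in DMSO libraries (SD, n = 5 each). In edgeR the log2 fold change was 0.02 with an SE of 0.09 (adjusted p = 0.918), and counting error accounted for 90.9% of its variance. Nfu_g_1_010594 (1791 bp), ranked 2, had 428, 434, 428, 415 and 455 normalized counts in the rotenone libraries and 454, 417, 471, 453 and 422 in the DMSO libraries. Its highest library was DMSO replicate 3 and its lowest rotenone replicate 4, with the other libraries of the groups interleaved. In edgeR its log2 fold change was −0.04 with an SE of 0.10 (adjusted p = 0.870).

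The lowest p in each direction fell on genes less steady than these. A difference between the groups adds to the SD that ranks the genes, so this order follows in part from the choice. Nfu_g_1_004647 (4048 bp) ranked 200, the last gene inside the limit. It had 2474, 2681, 2486, 2526 and 2638 normalized counts in the rotenone libraries and 2221, 2367, 2176, 2131 and 2140 in the DMSO libraries. All 5 rotenone libraries lay above all 5 DMSO libraries, and this was the single steady gene without overlap. Means were 2561 ± 93.2 in rotenone and 2207 ± 96.3 in DMSO libraries (SD, n = 5 each), and 81.6% of the variance lay between the groups. The log2 fold change was 0.22 (SE 0.10), which did not pass in edgeR (adjusted p = 0.237) or in DESeq2 (adjusted p = 0.0567). Counting made up 5.66% of its variance. Nfu_g_1_007535 (1356 bp), ranked 151, had 508, 517, 485, 485 and 448 normalized counts in the rotenone libraries and 519, 554, 515, 580.3 and 583 in the DMSO libraries. Rotenone replicate 2 and DMSO replicate 3 were the libraries that made the groups overlap. Means were 489 ± 26.8 in rotenone and 550.4 ± 32.5 in DMSO libraries (SD, n = 5 each). For this gene edgeR gave a log2 fold change of −0.17 with an SE of 0.10 (adjusted p = 0.349).

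**Figure D3:**
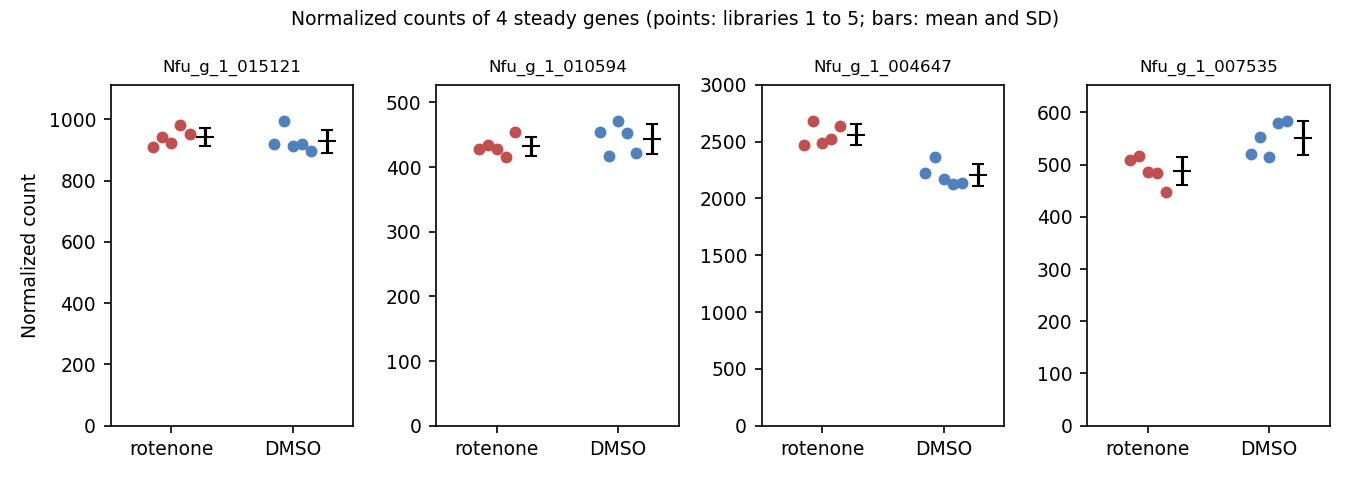
Normalized counts of 4 steady genes in each rotenone (red) and DMSO (blue) library, with axes from 0; points are replicates 1 to 5 from left to right, and black bars give the mean and SD of 5 libraries. Only for Nfu_g_1_004647, at 2474 to 2681 in rotenone and 2131 to 2367 in DMSO, do the groups not overlap.

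How far steadiness carried from libraries of 1 group to those of the other was measured with the same rule. It chose 200 genes by their SD in 5 libraries, and their SD was then read in the other 5. The limits on mean count used all 10. The 200 steadiest genes of the rotenone libraries had a median SD of 0.0620 there and of 0.20 in the DMSO libraries, where all ranked genes had 0.298. The 200 steadiest of the DMSO libraries had a median SD of 0.0679 there and of 0.170 in the rotenone libraries, where all ranked genes had 0.267. The genes were thus less spread than the typical gene in libraries whose SD was not used to pick them. The gap was much larger in the libraries that were used, but there the choice fixed the low SD. Of the genes chosen in rotenone, 101 of 200 lay in the lowest 25% of SD in DMSO and 35 lay above the median. Of those chosen in DMSO, 104 lay in the lowest 25% in rotenone and 41 above the median. The lists shared 13 genes, 6.5% of each, where 200 genes make up 1.98% of those ranked. Without rotenone replicate 4 that overlap was 7 genes, 3.5% of each list, where 200 genes make up 1.95% of those ranked. With the median absolute deviation in place of the SD it was 5 genes, 2.5% of each against 1.98%, and so close to that share. Over all 10090 ranked genes, Spearman's correlation between the SD in rotenone and the SD in DMSO libraries was 0.50. The libraries share 1 set of size factors, and a gene's depth enters both SDs.

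**Figure D4:**
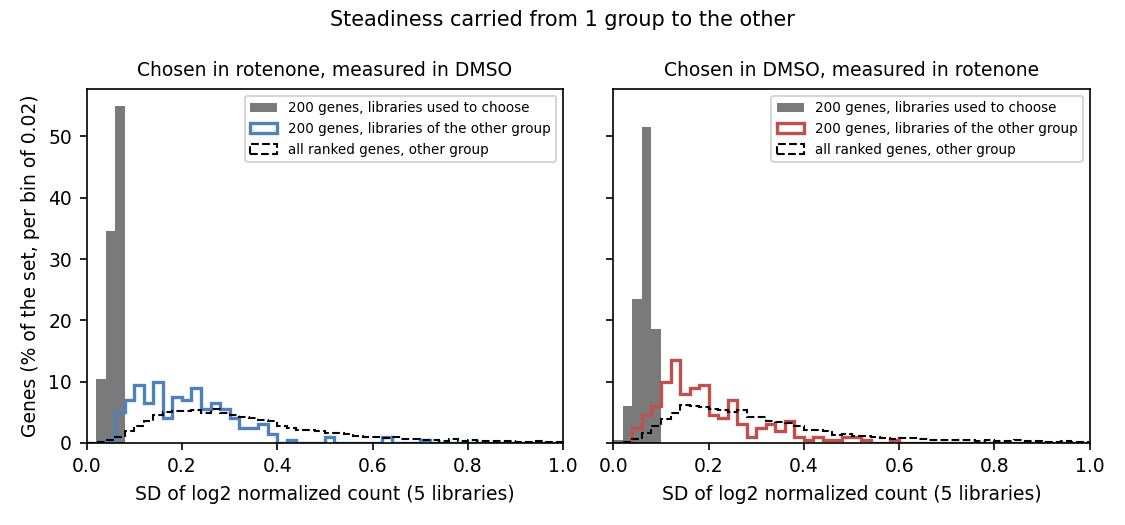
SD of log2(normalized count + 1) over 5 libraries, as the percentage of genes per bin of 0.02, for the 200 genes steadiest in rotenone and read in DMSO (left, blue outline) and the 200 steadiest in DMSO and read in rotenone (right, red outline). Grey bars give the same genes in the libraries that chose them and the dashed line all ranked genes, with values above 1 not drawn; the medians in the other group, 0.20 on the left and 0.170 on the right, lie between the bars and the bulk of all genes.

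Of the 200 genes steadiest over all 10 libraries, 48 were also among the 200 steadiest in rotenone alone and 59 in DMSO alone. In both lists were 10 of them, and 103 were in neither. Membership also turned on single libraries, as 107 of the 200 were chosen again without DMSO replicate 4, against 152 to 173 without any other library.

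Which genes counted as steady depended on what the counts were divided by. TMM factors, which like size factors follow the bulk of genes, gave 193 of the 200 again, and upper-quartile factors 154. With each library's total count as the divisor, 4 of the 200 were chosen again, and on that scale the 200 had a median SD of 0.236. Genes chosen for low SD on 1 scale tend to have a larger SD on another. The SD of the other ranked genes was not computed with total counts, so nothing is read from the rise. The share of all counts that fell on the 200 genes was 0.727, 0.746, 0.741, 0.555 and 0.589% in rotenone replicates 1 to 5 and 0.803, 0.606, 0.827, 0.833 and 0.769% in DMSO replicates 1 to 5. Genes chosen as level after division by size factors take a share that follows the library's size factor relative to its total. These shares therefore largely restate that relation. The share was lowest in rotenone replicates 4 and 5 and DMSO replicate 2. In these same libraries the 100 most abundant genes, left out by the rule, took 52.9, 51.6 and 49.9% of counts, against 36.7 to 46.5% in the other 7. The part of these genes in the difference was not tested. On the total-count scale the median log2 difference of the steady genes, rotenone minus DMSO, was −0.20. Over all 16922 tested genes the median log2 fold change was −0.20 too. Relative to the bulk of genes the difference thus remained near 0, which follows in part from choosing on a scale set by the bulk. Factors made from the summed counts of the 200 genes lay within 0.967 to 1.03 times the size factors, which follows from choosing the genes on that scale. With them as the scale edgeR called 44 genes higher and 30 lower over all tested genes, against 50 and 25 with TMM.

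The deposited RPKM showed these genes with more spread than the size-factor scale did. Over the 10 libraries the SD of log2(RPKM + 1) had a median of 0.318 as deposited and of 0.203 recomputed with each library's own total, beside 0.111 for the size-factor scale. The other ranked genes had medians of 0.412 as deposited and 0.325 with own totals, beside 0.334 for the size-factor scale. The 200 genes were chosen for low SD on the size-factor scale. Their larger spread on other scales, and the ratios below, therefore follow in part from the choice. The median ratio of highest to lowest library for a steady gene was 2.28 as deposited (1.56 to 3.61), against 2.91 for the other ranked genes. As deposited, 0 of the 200 and 45 of the 9890 others stayed under 1.5-fold, with own totals 28 and 353, and on the size-factor scale all 200 and 939. Nfu_g_1_010594, at 415 to 471 normalized counts, ran from 3.65 to 11.8 deposited RPKM. Dividing the counts by the deposited RPKM gave 1 length per gene across libraries only when the column totals were taken in a cycle down the genes (median coefficient of variation 3.49e-05, against 0.153 with own totals). A deposited value therefore departs from its own library's scale by a factor of 0.696 to 1.44. Ranking by the deposited RPKM chose 2 of the 200 genes, and ranking by RPKM with own totals 12. Both rankings used log2(RPKM + 1), where the added 1 narrows the spread of genes of low RPKM. The lowest SD among the other ranked genes was 0.054 as deposited and 0.043 with own totals. Among the steady genes it was 0.159 and 0.116. The part of the added 1 in these choices was not tested.

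**Figure D5:**
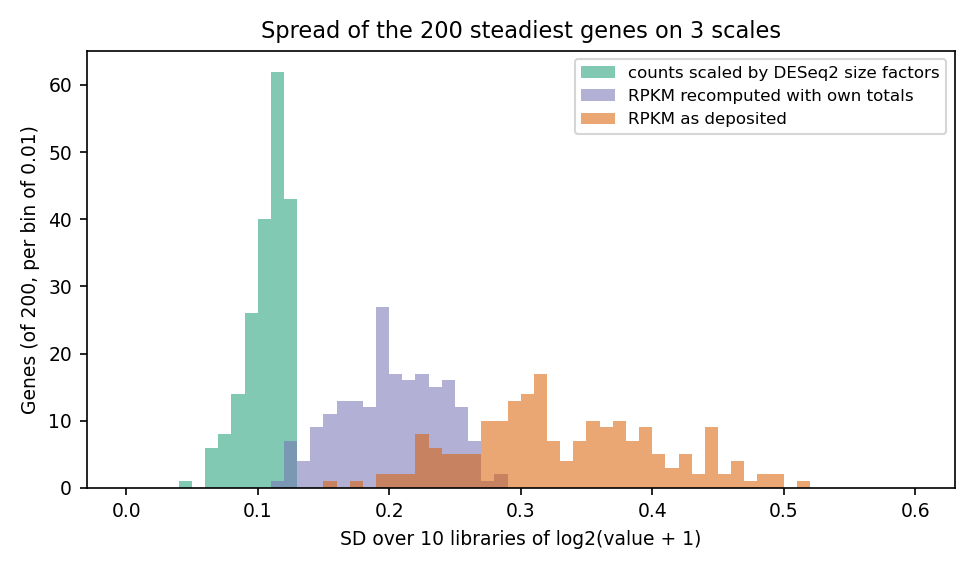
Number of the 200 steadiest genes per bin of 0.01 of SD over 10 libraries of log2(value + 1), for size-factor-scaled counts (green), RPKM recomputed with own totals (purple) and RPKM as deposited (orange). The medians are 0.111, 0.203 and 0.318, and RPKM values being small, the added 1 narrows the spread on the RPKM scales. The genes were chosen for low SD on the first scale, so this order follows in part from the choice.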

How the data were processed

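The authors deposited 2 tables over 26739 genes and 10 libraries, one of read counts and one of RPKM (counts relative to length and depth). That the first holds raw counts was read from its values, whole numbers with unlike totals. In the submitters' processing notes the tools are STAR 2.4.1d, featureCounts 1.4.6-p4 and bcl2fastq 1.8.4. Build, annotation and strand setting were not given in the sources used, and overlapping, antisense and near-identical genes could share reads. Libraries were made with a TruSeq kit per the labels' protocols.

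Members and lists were chosen with earlier results of these data known. The group test was edgeR 4.0.16 under R 4.3.3 (quasi-likelihood, TMM, filterByExpr, 5 against 5, no covariates), adjusted by Benjamini-Hochberg over 16922 genes, with standard errors derived from the fold change and F. DESeq2 1.42.0 and limma 3.58.1 were alternatives. The tests and the rule were tested on simulated data. The counting SD is 1/(ln 2 × √count). Gene lengths came from counts and deposited RPKM and were not checked against an annotation.

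Genes given by ID were, in each direction of the log2 fold change, the one of lowest SD and the one of lowest p. Groups came from the labels, and replicate numbers only name libraries. The 20 within-group pairs of libraries differed beyond counting error, with 59.3 to 350.0 for chi-square over its degrees of freedom, so none looked deposited in duplicate. The p-values rest on the spread among these samples, part of which may be technical.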

Additional observations from a re-analysis of the deposited data

Results flagged for a closer look

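18 groups of 5 values (library measures and the 4 genes given by ID) were searched for a library far from the rest of its group by Dixon's ratio, with a critical value of 0.71, and chance marks about 1 in 20 such groups. 3 were found. DMSO replicate 2 had the lowest share of counts on the steady genes among the DMSO libraries, 0.606% (ratio 0.719). By the choice of the genes, that share largely restates the library's size factor relative to its total. Rotenone replicate 2 had the largest median absolute deviation of the steady genes among the rotenone libraries, 0.0917 on the log2 scale (ratio 0.758). DMSO replicate 2 also had the highest normalized count of Nfu_g_1_015121 among the DMSO libraries, 995 (ratio 0.761). Counting error accounted for 90.9% of that gene's variance over all 10 libraries.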

How the results depend on the processing

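No paired analysis was possible because replicate numbers follow accession order and pair nothing. The count of 0 steady genes called in each direction was the same in all 21 alternatives tried for it, which says nothing of stability, since the choice bounds the differences and 4 of these alternatives called no gene at all. Of the 200 genes, the rule chose 4 again with total counts, 2 with deposited RPKM, 12 with own-total RPKM and 67 with the median absolute deviation as the measure. It chose 171 again with the counting variance subtracted, and 185 and 148 with minimum mean counts of 100 and 500. It chose 48 from the rotenone and 59 from the DMSO libraries alone, which was added after the data were examined, and 107 to 173 with a library left out. The lists of the groups shared 13 genes, 6.5% of each, where 200 genes make up 1.98% of those ranked. This became 21 with a minimum mean count of 500 (10.5%, against 3.1%). It became 5 with the median absolute deviation (2.5%, against 1.98%), and 7 to 13 with a library left out (3.5 to 6.5%). The median SD of 0.111 became 0.236 with total counts, 0.203 with own-total and 0.318 with deposited RPKM. Within rotenone libraries it was 0.227 and within DMSO libraries 0.216 with total counts. The genes were chosen for low SD on the size-factor scale, so a rise on other scales follows in part from the choice. The median log2 difference of 0.01 became −0.20 with total counts and −0.28 with deposited RPKM. Nfu_g_1_015121 turned to −0.18 with total counts, −0.16 and −0.18 on log2 of own-total RPKM plus 1 and plus 0.1, −0.16 on deposited RPKM (adjusted p from 0.486 to 0.650 over these), and lay between −0.00012 and 0.037 with a library left out. Nfu_g_1_004647 turned to −0.067 on deposited RPKM (limma adjusted p = 0.885) and lay at 0.012 with total counts and 0.0064 on own-total RPKM plus 1. On total counts, log2(own-total RPKM + 1) and log2(deposited RPKM + 1), Nfu_g_1_010594 was at −0.25, −0.21 and −0.46 (adjusted p from 0.321 to 0.431), against −0.036 with TMM, and Nfu_g_1_007535 at −0.37, −0.35 and −0.42 (adjusted p from 0.225 to 0.338; edgeR, limma and limma), against −0.17. Over all 16922 genes tested, the median log2 fold change was 0.0026 with TMM and −0.20 with total counts. It was −0.12 on log2(own-total RPKM + 1) and −0.20 on log2(deposited RPKM + 1). The change of scale thus moved the bulk of genes as well as those given by ID. The cause of these changes was not tested. The number of steady genes without overlap was 1 above and 0 below, and 0 in both directions with total counts. With a library left out it ran from 1 to 4 above and from 0 to 2 below. Fewer libraries make such a gap easier for any gene. The share over all genes was not computed for these alternatives, so nothing is read from the counts. Counting error limits what can be seen in the least abundant steady genes.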
